A study of Mus musculus with 12 samples.

Results

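The endosomal route of nucleic-acid sensing and the enzymes that clear nucleic acids were followed in CD4+ T cell transcriptomes of lupus-prone and control mice through 8 genes: Tlr7, Tlr9, Unc93b1, Myd88, Irf5, Trex1, Samhd1 and Adar. They were listed by name, with no measured value in the rule, and all 8 were among the 35275 genes of the expression table. Trex1 was listed at 0 in every library, and the other 7 averaged 0.5 FPKM or more across the 12 mice, the filter that 13115 genes passed. FPKM counts fragments per kilobase of transcript, relative to the depth of the library. Tlr9 lay below 0.5 FPKM in all 3 untreated B6 mice and passed the filter through the other groups.

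Tlr7 and Tlr9 are endosomal receptors, the former for RNA and the latter for DNA with unmethylated CpG motifs. Both need the chaperone Unc93b1 to leave the endoplasmic reticulum, signal through the adaptor Myd88 and activate the transcription factor Irf5, and are known above all in B cells, plasmacytoid dendritic cells and myeloid cells. Trex1 degrades cytosolic DNA, Samhd1 hydrolyses deoxynucleotides, and Adar edits adenosine to inosine in double-stranded RNA, so that their loss leads to interferon responses against the cell's own nucleic acids. Excess Tlr7 signalling and loss of Trex1, Samhd1 or Adar are each linked to lupus or lupus-like disease.

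There were 4 groups of 3 libraries from female mice 9 to 12 weeks of age, and each library is counted here as 1 mouse, since the study's methods call them biological replicates. B6 is the C57BL/6J strain. SLE123 is a B6 congenic that carries Sle1, Sle2 and Sle3, the regions of NZM mice that confer susceptibility to lupus, so that the strains differ in 3 regions at once, and none of the 8 genes lies on a chromosome that carries 1 of these regions. In each strain, mice were either left untreated or given the monoclonal antibody MB23G2 against CD45RB, the isoforms of the phosphatase CD45 that keep its B exon, in 5 injections of 100 μg between day 0 and day 7. CD4+ T cells were taken by negative magnetic sorting, with a purity of about 98% per the study's methods. A further sort on CD25 is described there, and the titles of the libraries name no such fraction.

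Total fragments recovered from the FPKM values were 13562933 to 23641603 per library. The summed level of 9 T cell markers, among them Cd4 and Cd3e, was 2561 to 3283 FPKM and was lowest in untreated SLE123 replicate 3. In B6, treated mice at 2844 to 2905 FPKM lay below untreated mice at 3129 to 3250. For treatment in B6, 4 of the 9 were called lower, by the test given below, where 14.9% of all genes were called in either direction. For treatment in SLE123, 0 of the 9 were called. Transcripts of other cells were present in every library, and none of 9 B cell markers was at 0 throughout any group. Their summed level was 6.5 to 7.94 FPKM in untreated B6, 27.2 to 35.8 in treated B6, 64.6 to 240.0 in untreated SLE123 and 38.3 to 58.2 in treated SLE123. Immunoglobulin genes took 0.0895% to 0.336% of fragments in B6 libraries and 2.51% to 12.2% in SLE123 libraries, the highest again in untreated SLE123 replicate 3. Treated SLE123 replicates 2 and 3 resembled each other more than any other pair within a group. Over 204 immunoglobulin V genes, the SD of their log2 difference was 0.306, against 0.7 to 1.14 in the other 11 pairs. Their counts still differed by more than sampling noise, and they were kept as 2 samples, but whether they came from 1 animal or 2 cannot be told apart here. With their average as 1 sample, the calls of Unc93b1 and Irf5 in the interaction held, and 1 of 4 calls between treated strains (Unc93b1) was left. Treated SLE123 replicate 1 held 44.9 FPKM of 6 summed liver transcripts, close to the 40.2 to 47.2 of the B6 libraries, whereas the other 5 SLE123 libraries held at most 0.368.

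In B6 mice, Unc93b1, Irf5, Tlr9 and Samhd1 rose with treatment, which made 4 of the 7 genes tested, where 14.9% of all genes were called and 8.74% were called higher. Tlr9, at a mean of 0.172 FPKM in untreated B6, could enter the test only if other groups were higher, which favours its call. A gene is called here at an adjusted p under 0.05 in limma on log2(FPKM + 1), with the Benjamini-Hochberg method over all 13115 genes. In SLE123 mice, 0 of the 7 were called for treatment, where 0.0381% of all genes were called. At an unadjusted p under 0.05 there was 1 of the 7 (Adar), where 10.4% of all genes passed, and limma-voom on the recovered fragments also called 0. The median residual SD over genes was 0.145 on the log2 scale in the SLE123 fit and 0.0872 in the B6 fit.

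Untreated SLE123 mice had more Unc93b1, Irf5 and Tlr9 than untreated B6 mice, 3 of the 7 and all upward, where 42.9% of all genes were called and 22.8% were called higher. The filter favours the call of Tlr9 here too, since Tlr9 passed it only through groups other than untreated B6. On rescaling to TPM, Adar (-0.55, adjusted p = 0.0139) and Myd88 (-0.4, adjusted p = 0.049) were called lower as well. Among treated mice, Unc93b1, Irf5, Tlr7 and Adar were higher in SLE123, 4 of the 7, where 52.1% of all genes were called and 29.6% were called higher. Leaving out any 1 of those 6 libraries left 1 or 2 of these 4 calls. The effect of treatment itself differed between the strains for Unc93b1 and Irf5, which were 2 of the 7 and both more negative in SLE123, where 3.64% of all genes were called and 2.38% were called lower. The comparisons share groups of mice and are not independent of each other. Background shares between the strains moved with the scaling. Rescaling to TPM turned the calls over all genes from 2990 higher and 2631 lower to 1914 and 5974 in untreated mice, and from 3881 and 2955 to 2442 and 4480 in treated mice. For the interaction, scaling to fragments outside immunoglobulin genes turned 166 higher and 312 lower into 96 and 323.

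**Figure D1:**
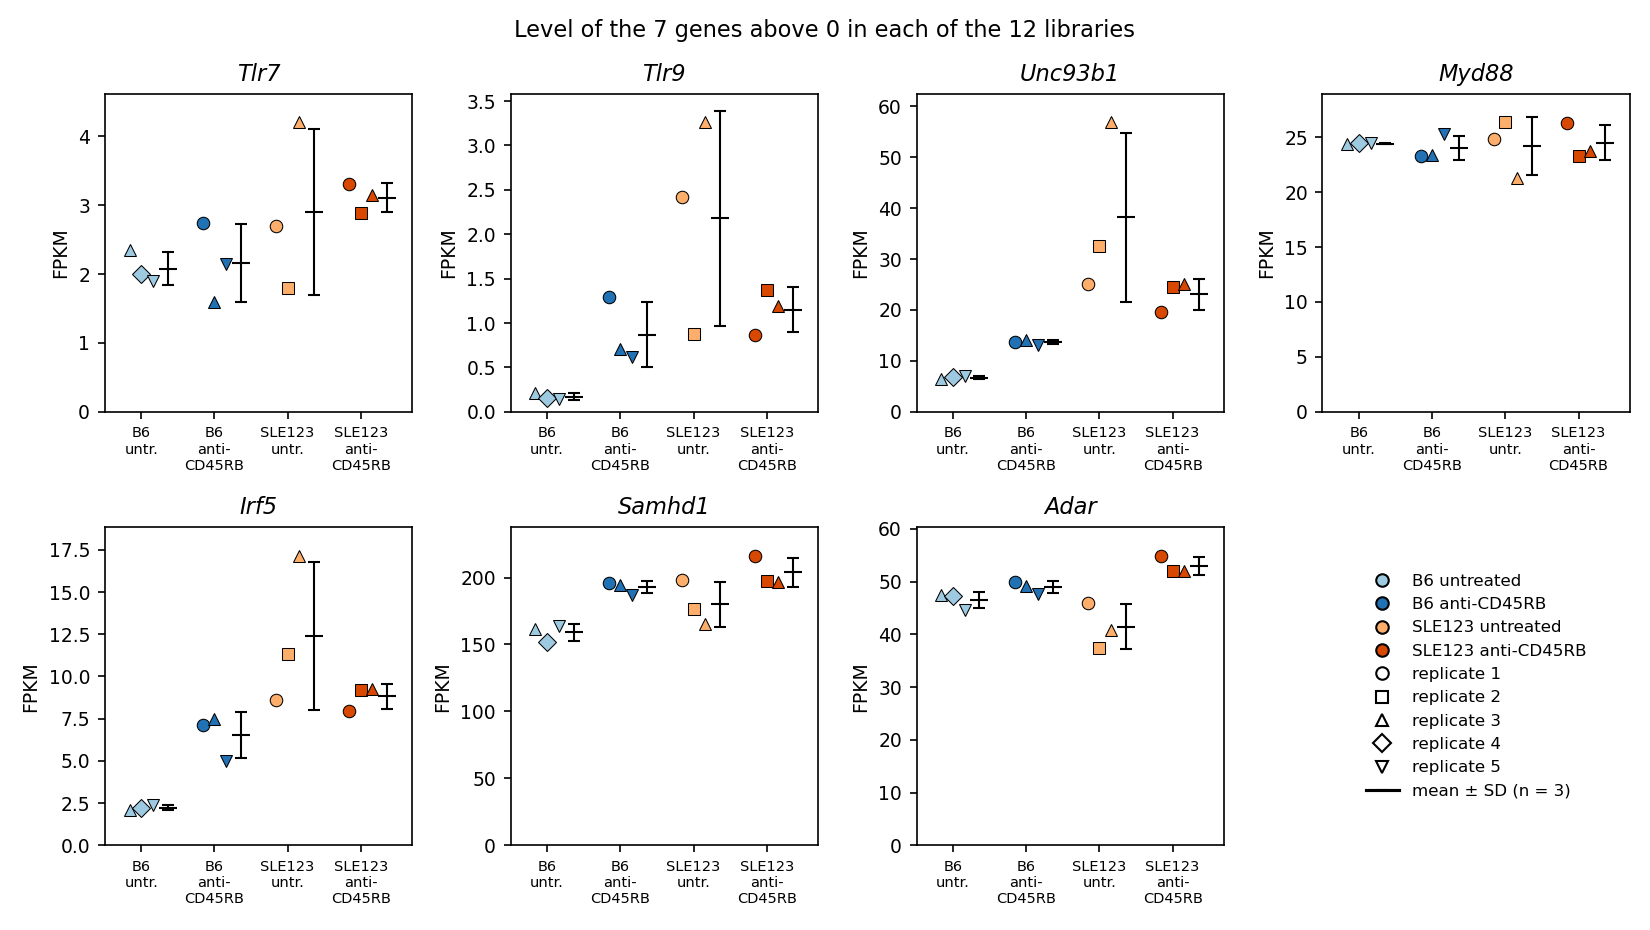
Level of 7 genes in each of the 12 libraries, in FPKM from 0, by group. Each point is 1 mouse, its shape is the replicate number, and the bar beside each group is the mean ± SD (n = 3). Unc93b1 and Irf5 in treated B6 mice lay above untreated B6 mice without overlap, and Myd88 stayed between 21.3 and 26.3 FPKM in all 12.

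**Figure D2:**
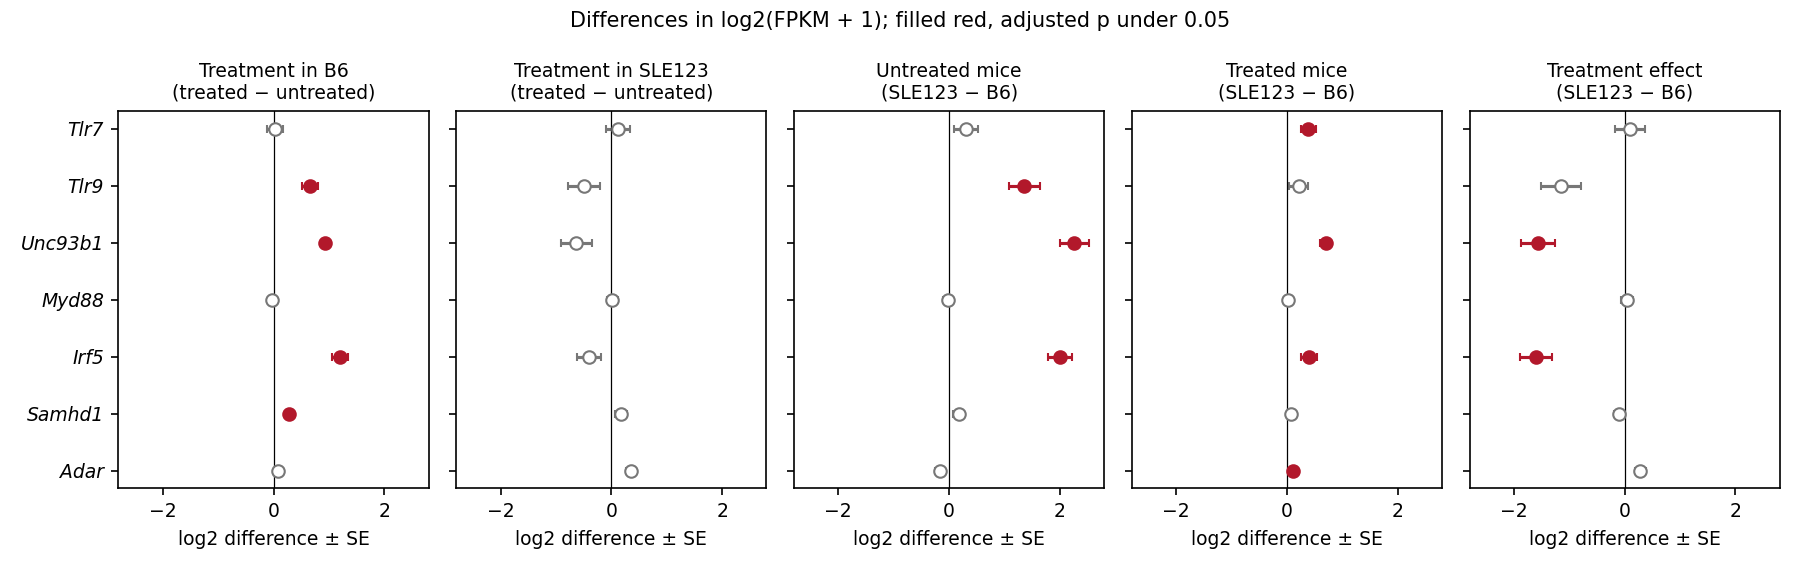
Difference in log2(FPKM + 1) ± SE of each gene in the 5 comparisons, with filled red points at an adjusted p under 0.05. Error bars shorter than the symbol are hidden by it. Unc93b1 and Irf5 were called in all comparisons but treatment in SLE123, whose 7 points are open.

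RefSeq promoters (GRCm38.p6, 250 bases before to 50 after the start site) were on hand for 6 of the 8 genes, and Tlr7 and Unc93b1 had no entry. They are printed for the 3 genes with an entry that rose in treated B6 mice (Tlr9, Irf5 and Samhd1) and for Myd88, whose level stayed flat, on the strand of the gene, with motif matches in capitals. The windows are chr9:106222348-106222647 (plus strand) for Tlr9, chr6:29526375-29526674 (plus) for Irf5, chr2:157135047-157135346 (minus) for Samhd1 and chr9:119339969-119340268 (minus) for Myd88. The motifs were searched on both strands. They were a pair of GAAA runs with 2 bases between them (core of the interferon-stimulated response element, in 3.44% of 32851 promoters of this length), ATGCAAAT (octamer, 1.74%), GAGGAAGT (PU.1-type Ets site, 3.2%), TTCNNNGAA (STAT site, 8.3%), GGGA and TTTCC with 1 base between them (NF-kB site, 0.411%) and TGACGTCA (cAMP response element, 1.79%).
Tlr9: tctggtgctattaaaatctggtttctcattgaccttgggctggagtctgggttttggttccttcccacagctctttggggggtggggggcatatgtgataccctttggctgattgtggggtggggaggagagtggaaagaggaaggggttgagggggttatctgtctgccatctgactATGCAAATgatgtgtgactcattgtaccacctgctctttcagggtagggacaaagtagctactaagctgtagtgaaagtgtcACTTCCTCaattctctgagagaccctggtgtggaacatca
Irf5: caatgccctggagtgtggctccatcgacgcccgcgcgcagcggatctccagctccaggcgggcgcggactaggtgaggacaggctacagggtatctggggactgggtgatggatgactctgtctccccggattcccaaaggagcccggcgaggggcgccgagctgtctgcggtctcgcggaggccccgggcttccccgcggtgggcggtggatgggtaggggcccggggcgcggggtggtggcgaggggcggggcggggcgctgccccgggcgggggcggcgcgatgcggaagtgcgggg
Samhd1: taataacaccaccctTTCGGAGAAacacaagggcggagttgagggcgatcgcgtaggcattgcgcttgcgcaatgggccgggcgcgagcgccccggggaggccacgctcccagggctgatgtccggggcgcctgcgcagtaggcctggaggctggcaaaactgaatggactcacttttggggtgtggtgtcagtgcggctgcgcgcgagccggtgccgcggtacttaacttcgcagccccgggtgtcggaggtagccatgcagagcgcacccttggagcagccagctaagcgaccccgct
Myd88: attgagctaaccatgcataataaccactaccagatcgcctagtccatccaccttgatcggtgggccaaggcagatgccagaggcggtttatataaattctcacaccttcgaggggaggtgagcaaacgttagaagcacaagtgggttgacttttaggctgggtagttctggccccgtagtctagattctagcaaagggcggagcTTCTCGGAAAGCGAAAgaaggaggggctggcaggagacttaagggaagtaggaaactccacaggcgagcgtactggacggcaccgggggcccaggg
The Tlr9 window held the octamer, a motif of immunoglobulin promoters, 72 bases before the start site and the Ets motif, on the opposite strand, 10 bases after it. The Samhd1 window held the STAT motif 235 bases before the start. In the Myd88 window, the interferon-response core began 40 bases before the start and overlapped the STAT motif that began 46 bases before it. The Irf5 window held none of the 6. Motifs were also found in windows not printed. An Adar window held the Ets motif 241 bases before the start and the STAT motif 22 bases after it. A Trex1 window held the Ets motif at the start site. A match is a run of letters, and no binding was measured.

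Tlr9, the DNA receptor (chr9:106222598-106226883, plus strand), was the lowest of the 7 measured genes in untreated B6 mice, at 0.214, 0.159 and 0.143 FPKM in replicates 3, 4 and 5, from 12, 10 and 8 fragments. Treated B6 replicates 1, 3 and 5 had 1.29, 0.703 and 0.615 FPKM, from 61, 40 and 36 fragments. All 3 treated mice were above all 3 untreated mice, with replicate 1 the highest. The ratio of mean levels was 5.06, and the log2 difference was 0.66 ± 0.14 (SE, n = 3 per group, limma adjusted p = 0.0261). Adding 1 FPKM before the log understates such a change at low levels. The call was lost without any 1 of the untreated B6 mice, replicates 3, 4 and 5, at adjusted p = 0.0709, 0.0879 and 0.0679, and held without any 1 of the treated mice.

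In SLE123 mice, Tlr9 was at 2.42, 0.877 and 3.26 FPKM in untreated replicates 1, 2 and 3, and at 0.871, 1.37 and 1.19 FPKM in the treated ones. The groups overlapped, because untreated replicate 2 lay at the level of the lowest treated mouse. The log2 difference of -0.5 ± 0.291 did not pass the test (adjusted p = 0.51). Untreated SLE123 mice exceeded untreated B6 mice 12.7-fold in mean level, by 1.36 ± 0.281 on the log2(FPKM + 1) scale (adjusted p = 0.00744), whereas the treated mice of both strains overlapped (0.21 ± 0.163, adjusted p = 0.321). The interaction, which is the effect of treatment in SLE123 less its effect in B6, was -1.15 ± 0.355 (adjusted p = 0.0914), which missed the threshold, and passed it without untreated SLE123 replicate 2 (-1.49, adjusted p = 0.00904).

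Tlr7, the RNA receptor (chrX:167304929-167330558, minus strand), behaved otherwise. Untreated and treated B6 mice overlapped, at 2.35, 2.0 and 1.9 FPKM in untreated replicates 3, 4 and 5 and 2.74, 1.6 and 2.15 FPKM in treated replicates 1, 3 and 5. Untreated SLE123 replicates 1, 2 and 3 spread from 1.8 to 4.2 FPKM, with 2.7 in replicate 1, and the treated ones held 3.31, 2.89 and 3.15 FPKM. The spread of the untreated SLE123 group spanned all treated SLE123 mice and 5 of the 6 B6 mice. Treatment gave log2 differences of 0.024 ± 0.143 in B6 (adjusted p = 0.928) and 0.12 ± 0.215 in SLE123 (adjusted p = 0.832), and the interaction was 0.0981 ± 0.278 (adjusted p = 0.854). The untreated strains overlapped (0.3 ± 0.217, adjusted p = 0.303). Only among treated mice were the strains apart, with all 3 SLE123 mice above all 3 B6 mice by 0.39 ± 0.137 (adjusted p = 0.0479), and this call was lost on leaving out any library except treated B6 replicate 1 (adjusted p = 0.0805 to 0.115 in those 5).

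Unc93b1, the chaperone that carries both receptors to endosomes (chr19:3935186-3949340, plus strand), rose with treatment in B6. It was at 6.48, 6.76 and 6.96 FPKM in untreated B6 replicates 3, 4 and 5 and at 13.8, 14.2 and 13.2 FPKM in treated replicates 1, 3 and 5. Each group was tight and they lay far apart. The ratio of means was 2.04 and the log2 difference 0.93 ± 0.0537 (adjusted p = 0.000426). It held without each of the 6 mice in turn, at 0.9 to 0.95.

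In SLE123, the means had the opposite order and the spread was far wider. Untreated replicates 1, 2 and 3 had 25.1, 32.6 and 56.8 FPKM, and treated replicates had 19.6, 24.5 and 25.1 FPKM. The groups met at 25.1 FPKM, where treated replicate 3 reached untreated replicate 1. The log2 difference of -0.63 ± 0.274 did not pass the test (adjusted p = 0.469). Between the strains, Unc93b1 was 5.67-fold higher in untreated SLE123 mice (log2 difference 2.26 ± 0.26, adjusted p = 0.000592) and 1.68-fold higher in treated ones (0.7 ± 0.0931, adjusted p = 0.000935). The interaction was -1.56 ± 0.309 (adjusted p = 0.0218). It missed the threshold, at -1.45 to -1.56 and adjusted p = 0.0514 to 0.0607, without untreated B6 replicate 3 or 4, treated B6 replicate 1 or 3, or treated SLE123 replicate 1.

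Irf5, the transcription factor at the end of this route (chr6:29526625-29541871, plus strand), followed Unc93b1. Untreated B6 replicates 3, 4 and 5 had 2.1, 2.2 and 2.41 FPKM, and treated replicates 1, 3 and 5 had 7.11, 7.5 and 4.99 FPKM. The groups were apart by more than the range within either untreated or treated mice. The ratio of means was 2.92, and the log2 difference was 1.2 ± 0.139 (adjusted p = 0.00368). Untreated SLE123 replicates 1, 2 and 3 had 8.61, 11.3 and 17.1 FPKM, and treated ones had 7.98, 9.21 and 9.27 FPKM, so that the groups overlapped and the log2 difference of -0.4 ± 0.218 did not pass (adjusted p = 0.494).

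Irf5 was 5.52-fold higher in untreated SLE123 than in untreated B6 mice (2.0 ± 0.215 on the log2 scale, adjusted p = 0.000443). Among treated mice the ratio was 1.35 (0.4 ± 0.139, adjusted p = 0.0484), and this call was lost on leaving out any library except treated B6 replicate 3 (adjusted p = 0.0514 to 0.131 in those 5). The interaction of -1.6 ± 0.281 (adjusted p = 0.0117) held without each of the 12 mice in turn, at -1.81 to -1.35. Of the exon bases of Irf5, 14.1% also lie in exons of Tnpo3 on the opposite strand, and whether strand was used in counting is not given in the sources used here.

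Myd88, the adaptor shared by both receptors (chr9:119335934-119341411, minus strand), was the flattest of the 7. Its mean ± SD was 24.4 ± 0.0549 FPKM in untreated B6, 24.0 ± 1.12 in treated B6, 24.2 ± 2.6 in untreated SLE123 and 24.5 ± 1.6 in treated SLE123 (n = 3 each). All groups overlapped, and every log2 difference lay between -0.0286 and 0.0491, with adjusted p from 0.681 to 0.943. Rescaling to TPM made it lower in untreated SLE123 than in untreated B6 mice, as given above. Untreated SLE123 replicate 3, the library richest in B cell markers, held the lowest value, 21.3 FPKM.

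Samhd1, the deoxynucleotide hydrolase (chr2:157097533-157135265, minus strand), was the most abundant of the genes, with 10250 to 15337 fragments in every library. Untreated B6 replicates 3, 4 and 5 had 162, 152 and 164 FPKM, and treated replicates 1, 3 and 5 had 196, 194 and 187 FPKM. The rise was small but wider than the spread within either group. The ratio of means was 1.21 and the log2 difference 0.27 ± 0.0382 (adjusted p = 0.00714), and it held without each mouse in turn. SLE123 mice had 198, 176 and 165 FPKM untreated and 216, 198 and 197 treated, in replicates 1, 2 and 3. These overlapped narrowly, and the log2 difference was 0.18 ± 0.108 (adjusted p = 0.52). The interaction was -0.094 ± 0.104 (adjusted p = 0.602). Samhd1 was not called between the strains, at 0.17 in untreated mice (adjusted p = 0.192) and 0.0778 in treated mice (adjusted p = 0.216), values that turned to -0.21 and -0.1 on rescaling to TPM. With scaling to fragments outside immunoglobulin genes it was called higher in SLE123 in both, at 0.29 (adjusted p = 0.0252) and 0.14 (adjusted p = 0.0237).

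Adar, the RNA editing enzyme (chr3:89715022-89753446, plus strand), had its largest treatment difference in SLE123. Untreated SLE123 replicates 1, 2 and 3 had 46.0, 37.5 and 40.9 FPKM, and treated replicates had 54.9, 52.1 and 52.0 FPKM. It was the only 1 of the 7 genes whose SLE123 groups did not overlap, where 19.7% of all genes did not. The log2 difference was 0.35 ± 0.0914, with an unadjusted p of 0.00624 and an adjusted p of 0.432 in limma, so it was not called. B6 mice had 47.5, 47.3 and 44.7 FPKM in untreated replicates 3, 4 and 5 and 49.97, 49.1 and 47.8 FPKM in treated replicates 1, 3 and 5, which were also apart, with a log2 difference of 0.0721 ± 0.0369 (adjusted p = 0.225).

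The Adar interaction of 0.28 ± 0.0972 missed the threshold (adjusted p = 0.12) and passed it without untreated SLE123 replicate 1 (0.36, adjusted p = 0.00964). Among treated mice Adar was 1.08-fold higher in SLE123 (0.11 ± 0.0388, adjusted p = 0.047), a call that was lost on leaving out any 1 of the 6 libraries (adjusted p = 0.0647 to 0.152) and a direction that turned on rescaling to TPM (-0.0654). In untreated mice the difference was -0.17 ± 0.0914 (adjusted p = 0.176), and it was called without untreated SLE123 replicate 1 (-0.24, adjusted p = 0.0352). Exons of Chrnb2 on the opposite strand share 16.8% of the exon bases of Adar.

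No level of Trex1, the cytosolic DNA exonuclease (chr9:109057933-109059734, minus strand), can be given. It was listed at 0 in all 12 libraries. All of its exon bases (100%) also lie in exons of Atrip on the same strand, and Atrip was listed at 4.92 to 7.3 FPKM. Of the 54 protein-coding genes whose exon bases are all shared with another gene on the same strand, 50 (92.6%) were at 0 in every library, against 4341 of 21343 others (20.3%). A Trex1 transcript that was not present and fragments that were left uncounted on shared bases cannot be told apart in this table.

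Unc93b1, Irf5 and Tlr9 moved with transcripts of other cell types across the groups. The B cell marker list was called higher for 6 of its 7 tested genes in treated B6 mice and for all 7 in untreated SLE123 mice against untreated B6, whereas treatment in SLE123 called 0 of 7 in limma and in limma-voom, with 2 of 7 at an unadjusted p under 0.05. In the interaction, 4 of the 7 were called lower in limma and 1 in limma-voom. Among treated mice, 3 were higher in SLE123 and 3 were lower. Monocyte and macrophage markers, from 14.5 to 21.1 FPKM in untreated B6, summed to 49.9 to 125.0 in treated B6, 39.0 to 84.3 in untreated SLE123 and 28.4 to 36.8 in treated SLE123, and 4 of 5 tested were called higher in treated B6. Plasma cell markers summed to 38.4 to 168.0 FPKM in B6 and to 975.0 to 4777.0 in SLE123, with 6 of 6 called higher in SLE123 whether untreated or treated. Markers of further cell types also rose in treated B6 mice. Dendritic cell markers summed to 1.12 to 1.71 FPKM in untreated and 6.68 to 7.34 in treated B6, and to 2.44 to 5.37 and 1.97 to 2.26 in untreated and treated SLE123, with 3 of 4 tested called higher in treated B6. Neutrophil markers went from 1.08 ± 0.558 FPKM in untreated B6 (mean ± SD, n = 3) to 14.9 ± 3.0 in treated B6, with 3 of 4 called higher, and were at 8.47 to 30.9 in SLE123. Most of the treated B6 sum was S100a8 and S100a9 (means 5.91 and 6.55), and Camp was not called. Below the filter, Cxcr2 went from a mean of 0.0204 to 0.916 FPKM in B6, and Ly6g stayed at 0.022 and 0.0211. NK cell markers were at 31.6 to 33.9 FPKM in untreated and 49.0 to 61.7 in treated B6, with 3 of 5 called higher and 1 lower, and were at 34.6 to 40.8 and 49.6 to 59.9 in untreated and treated SLE123. Plasmacytoid dendritic cell markers lay at 26.5 to 41.9 FPKM in all 12 libraries, with overlapping sums in untreated and treated mice of each strain. In B6, most of this sum was Pacsin1, at a mean of 22.1 FPKM in untreated and 16.8 in treated mice. Of 5 tested, Tcf4 and Runx2 were called higher and Pacsin1 lower in treated B6. In untreated SLE123 against untreated B6, 3 of the 5 were called higher. Below the filter, Siglech had means of 0.097 and 1.26 FPKM in untreated and treated B6, and Klk1 had 0.0472 and 0.404. The part of these cells in the levels of the 3 genes was not tested, and in bulk RNA fewer cells of a type and less RNA per cell cannot be told apart.

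**Figure D3:**
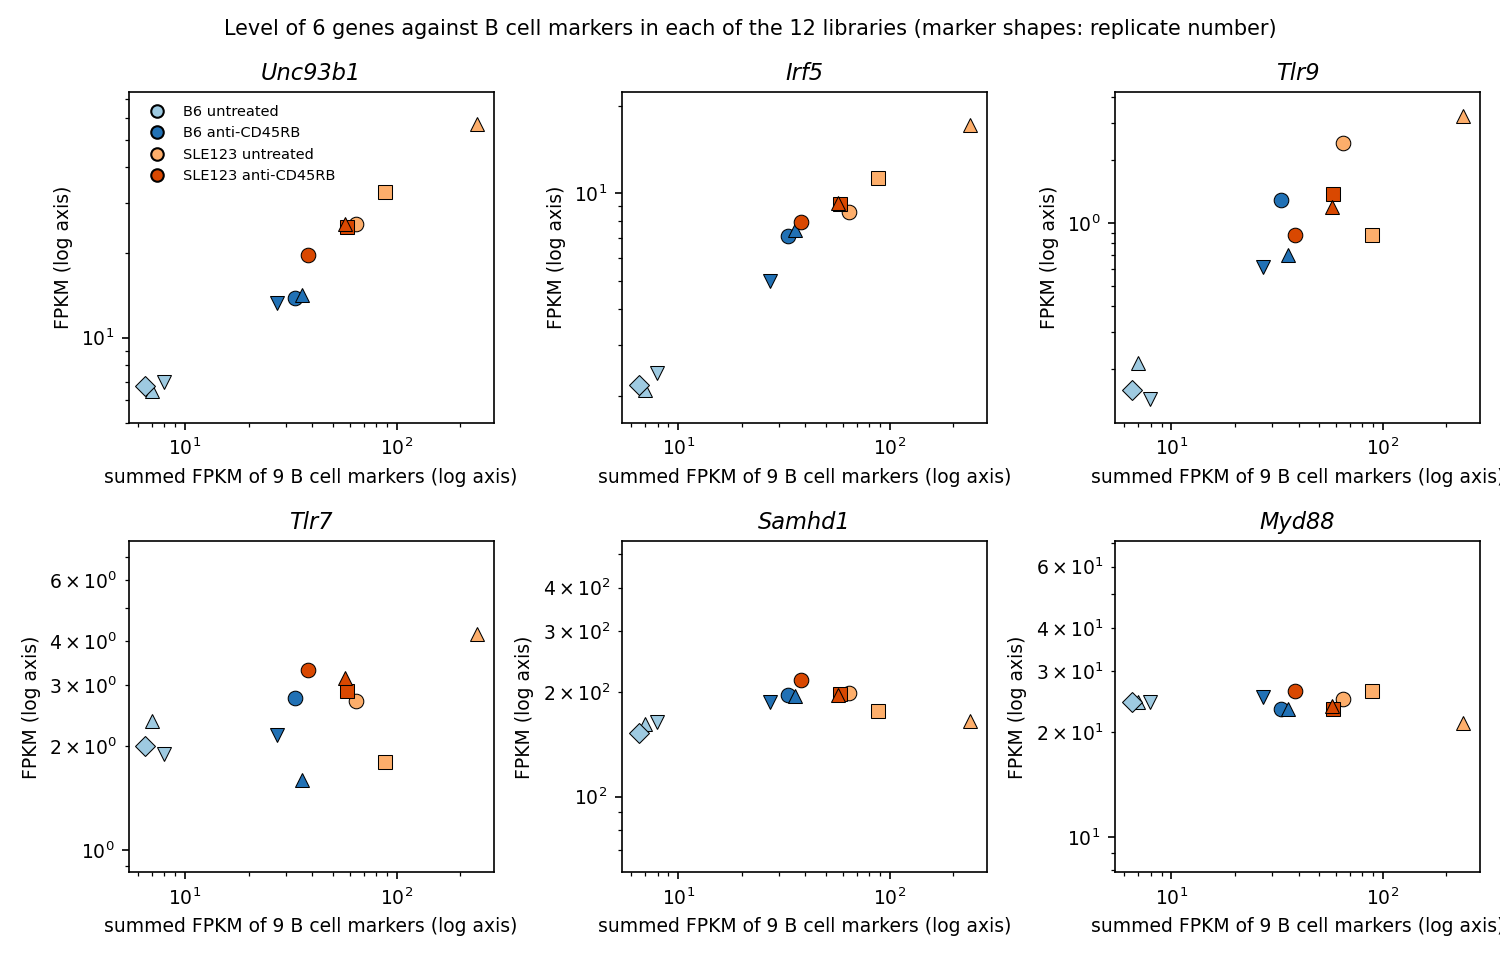
Level of 6 genes against the summed level of 9 B cell markers in the 12 libraries, both in FPKM on log axes, with colors for the groups and shapes for replicate numbers. Unc93b1 and Irf5 climb together from untreated B6 to untreated SLE123 replicate 3, whereas Myd88 and Samhd1 are nearly level and Tlr7 is scattered.

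Over the 12 mice, Pearson's r on the log2 scale between a gene and the summed B cell markers was 0.988 for Unc93b1, 0.988 for Irf5 and 0.902 for Tlr9. It was 0.562 for Tlr7, 0.427 for Samhd1, -0.273 for Adar and -0.328 for Myd88. With the summed plasma cell markers, r was 0.944 for Unc93b1, 0.889 for Irf5 and 0.795 for Tlr9, and -0.222 to 0.569 for the rest. With the summed monocyte and macrophage markers, r was 0.558 for Unc93b1, 0.678 for Irf5 and 0.687 for Tlr9, and -0.383 to 0.452 for the rest. These are descriptions, since mice of a group share strain and treatment and the groups separate along both axes. With the summed T cell markers, r was highest for Myd88 (0.718) and lay between -0.502 and 0.0597 for the other 6.

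The genes most alike to each member over the 12 mice fell into different kinds. They were sought among the genes tested, leaving out the other members, predicted or unnamed genes, and immunoglobulin and T cell receptor genes. Unc93b1 was most like Cd79b and Cd79a, both chains of the B cell receptor complex (r = 0.993 each), and Rnase6 (0.989). Irf5 was most like Cd74, the class II invariant chain (0.991), the endolysosomal nuclease Pld4 (0.985) and Cd79a (0.983). Tlr9 came with Cpeb2, Plxnb2 and Rhoq (0.952 to 0.947). Tlr7 came with Ganab and Edem3, both enzymes of glycoprotein processing in the endoplasmic reticulum (0.931 and 0.912), and Tm9sf1 (0.907). Samhd1 came with the interferon-inducible genes Usp18 (0.926) and Cmpk2 (0.924) and with Osbpl5 (0.924), and Adar with Uhmk1 (0.975), Dtx3l (0.966) and Lrrc8b (0.955). Myd88 had the lowest leading value, 0.903 with Kxd1. Between members, r was 0.971 for Unc93b1 and Irf5, 0.885 for Unc93b1 and Tlr9, 0.711 for Tlr7 and Tlr9, and 0.572 for Samhd1 and Adar.

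Other genes of these pathways were taken from 5 lists. Together they held 79 tested genes, of which 24.1% were called for treatment in B6, 51.9% between untreated strains, 59.5% between treated strains and 3.8% in the interaction, beside 14.9%, 42.9%, 52.1% and 3.64% of all genes. Limma-voom called 32 of the 79 for treatment in B6 where limma called 19, and over all genes it called 1543 higher and 1174 lower where limma called 1146 and 802. Of 13 receptors and trafficking factors, 10 were tested, and 4 rose in treated B6 mice: the lysosomal thiol reductase Ifi30 (log2 difference 0.38, adjusted p = 0.00404), 5430427O19Rik (0.47, 0.0233) and the lysosomal proteases Lgmn (0.32, 0.0266) and Ctsl (0.31, 0.0388). 5430427O19Rik is the former symbol of Tasl, which links endosomal receptors to Irf5, and like Tlr9 it lay below 0.5 FPKM in untreated B6 mice (mean 0.307) and passed the filter through the other groups. Tlr3, Tlr8 and Tlr13 were below the filter, with group means of 0.00602 to 0.431 FPKM. In untreated mice, 7 of the 10 were higher in SLE123, led by the protease Ctsb (1.26, adjusted p = 0.000161), and the receptor chaperone Hsp90b1 was 4.7-fold higher (2.11, adjusted p = 0.00178). Among treated mice 5 were higher and 2 lower, Ifi30 being lower by -1.05 (adjusted p = 4.51e-05). The transporter Slc15a4, a partner of Tasl, was the 1 called in the interaction (-0.61, adjusted p = 0.0327).

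Of 20 signalling genes, 4 rose in treated B6 mice, namely Irf8 (0.88, adjusted p = 0.00823), Irf7 (0.35, 0.00937), Ticam1 (0.33, 0.0102) and Irak2 (0.21, 0.0493). Irf8, a factor of B cells and dendritic cells, rose from a mean of 5.14 to 10.5 FPKM and was called in the interaction (-1.31, adjusted p = 0.0105), as Unc93b1 and Irf5 were. Between the strains the list was mixed, with 2 higher and 6 lower in untreated SLE123 mice and the same numbers in treated ones, a share of 40.0% that was below that of all genes in both. Irf7, the factor of the interferon response, was lower in untreated (-0.57, adjusted p = 0.00126) and treated SLE123 mice (-0.39, adjusted p = 0.00897). Irf3 was also lower in untreated (-0.57, adjusted p = 0.00337) and treated SLE123 mice (-0.5, adjusted p = 0.000123).

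Of 17 nucleases and processing enzymes tested, Pld4 rose in treated B6 mice (1.73, adjusted p = 0.00411), from a mean of 0.751 to 4.94 FPKM, and Rnaset2b fell (-0.18, adjusted p = 0.0494). This share of 11.8% was below the 14.9% of all genes. Pld4, which cuts single-stranded DNA and RNA in endolysosomes, was also called in the interaction (-2.34, adjusted p = 0.0307). Between untreated mice, 6 were higher and 3 lower in SLE123 (52.9%, beside 42.9% of all genes). Dnase1l3, a secreted DNase whose loss causes lupus in people, was at 0.133 FPKM in B6 and 3.2 in SLE123 (1.86, adjusted p = 0.000325), and Pld4 at 0.751 and 16.2 FPKM (3.14, adjusted p = 0.00061). Dnase1l3 lay below 0.5 FPKM on average in both B6 groups and passed the filter only through the SLE123 mice, so that it could enter the test only if the strains differed. Among treated mice, 10 were higher and 0 lower (58.8%, beside 52.1% of all genes called and 29.6% called higher). The count at an unadjusted p under 0.05 and that by limma-voom were also 10 (58.8%, beside 58.3% of all genes at an unadjusted p under 0.05).

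**Figure D4:**
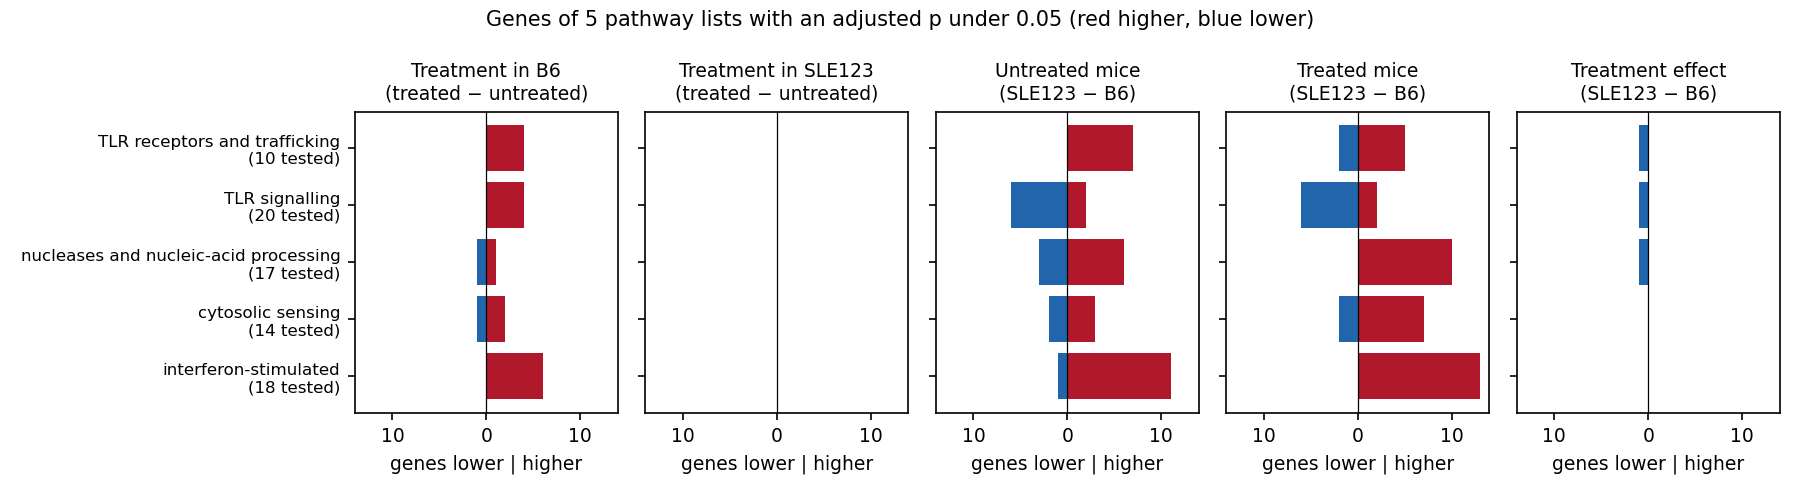
Number of genes called higher (red, to the right) and lower (blue, to the left) in each of 5 pathway lists, for the 5 comparisons. The panel for treatment in SLE123 is empty. The interferon-stimulated list has 13 of 18 genes higher in treated SLE123 against treated B6 mice, where 29.6% of all genes were called higher.

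Of 14 cytosolic sensing genes, 2 rose and 1 fell in treated B6 mice (21.4%, beside 14.9% of all genes). In untreated SLE123, 3 were higher and 2 lower (35.7%, below the share of all genes). In treated SLE123, 7 were higher and 2 lower (64.3%, beside 52.1% of all genes), led by the RNA sensor Ifih1 (0.86, adjusted p = 0.000112). Of 18 interferon-stimulated genes, 6 rose in treated B6 mice in limma (33.3%, beside 14.9% of all genes). In limma-voom 12 were called, and 13 had an unadjusted p under 0.05 in limma (72.2%, beside 32.3% of all genes). Among the 6 were Usp18 at 0.68 (adjusted p = 0.00702) and Cmpk2 at 0.59 (adjusted p = 0.00589). SLE123 had 11 higher and 1 lower when untreated (66.7%, beside 42.9% of all genes) and 13 higher when treated (72.2%, beside 52.1%). Oas1a was among them (1.45 and 1.19, adjusted p = 0.000247 and 0.000122). Treatment in SLE123 called 0 of the 79 genes of the 5 lists in limma and 0 in limma-voom, with 31 of 79 at an unadjusted p under 0.05 (39.2%, beside 10.4% of all genes). Of these, 15 were interferon-stimulated genes, of which all 18 had positive log2 differences in SLE123, with a median of 0.425 beside 0.414 in B6, where 17 of 18 were positive. The medians of all genes were 0.0379 and -0.00237. No interferon-stimulated or cytosolic sensing gene was called in the interaction (0 of 18 and 0 of 14 in limma and in limma-voom, 4 of each at an unadjusted p under 0.05, where 25.1% of all genes passed).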

How the data were processed

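RNA-Seq was performed on CD4+ T cells in 12 libraries, and each library was placed in its group by its title. The authors deposited FPKM values per Ensembl gene, made after base calling with CASAVA 1.8 and removal of low-quality reads; their processing notes also name STAR and mm10, and the strandedness of counting and the annotation are not given in the sources used here. The authors tested with DESeq2, which was not run here. The FPKM values of all 23230 genes above 0 (100%) could be written in whole steps of 1 fragment (within 0.0001), from which fragments and library totals were recovered. A gene above 0 in only 1 library meets this whatever its value, so the share does not check the counts of such genes. On a transcript of 2000 bases, 3 fragments give 0.0634 to 0.111 FPKM, a limit of counting error alone, because the reads carry no molecular identifiers and several may stem from 1 molecule.

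Genes that averaged 0.5 FPKM or more were tested with limma 3.58.1 (R 4.3.3; lmFit, then eBayes with a trend) on log2(FPKM + 1), two-sided, with Benjamini-Hochberg adjustment and a threshold of 0.05. Treatment and strain were each compared on the 6 mice concerned, as treated minus untreated and SLE123 minus B6, and the interaction on all 12. The scripts were tested on simulated data, with 200 of 13115 genes changed. At a true log2 change of 0.5, 0.0% of changed genes were called for treatment in SLE123 and for strain in untreated mice. The share was 54.0% for treatment in B6, 55.5% for strain in treated mice and 17.5% for the interaction. At a change of 1, it was 72.5% to 88.5%. Coordinates and exon overlaps are from GENCODE release M21 (GRCm38), which held 97.8% of the identifiers, and promoters are from RefSeq (GRCm38.p6). Correlations used log2(FPKM + 1). Named genes were all 8 members, at most 4 genes of smallest adjusted p per list and comparison among those called, and 3 genes correlated with each member. These 3 were the most correlated after leaving out other members, predicted or unnamed genes, and immunoglobulin and T cell receptor genes. Irf8, Pld4 and Slc15a4 are such genes, and Tlr3, Tlr8, Tlr13 and Atrip were added. The members, lists and tests were chosen with earlier results of these data known. Tests were repeated with 0.1 as pseudocount, without a filter and with one at 1 FPKM, after rescaling to TPM, with voom on recovered fragments, with all 12 mice in 1 fit, with the replicate number as block, without each mouse in turn, and, chosen after seeing the data, scaling to fragments outside immunoglobulin genes and averaging treated SLE123 replicates 2 and 3. P-values measure the spread between the libraries of a group.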

Additional observations from a re-analysis of the deposited data

Results flagged for a closer look

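The treatment effect differed between the strains, by the test of the difference itself, for 2 of the 7 genes tested. For Irf5 the effect in SLE123 minus that in B6 was -1.6 ± 0.281 (SE, limma, adjusted p = 0.0117), and for Unc93b1 it was -1.56 ± 0.309 (adjusted p = 0.0218). In both cases all 3 treated B6 mice were above all 3 untreated B6 mice, whereas the SLE123 groups overlapped with the higher mean in untreated mice. The summed B cell markers had the same order, with means of 7.14 and 32.0 FPKM in untreated and treated B6 and 131.0 and 51.3 FPKM in untreated and treated SLE123. Their part in the difference was not tested.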

How the results depend on the processing

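Of 539 values of single genes under an alternative, 463 kept their direction and their side of the threshold. Members called fell from 4 to 2 for treatment in B6 and to 1 for strain in treated mice with all 12 mice in 1 fit. Unc93b1 and Irf5 kept their calls for treatment in B6, strain in untreated mice and the interaction under every alternative that used all libraries, except the block, whereas Tlr9 lost its call for treatment in B6 without a filter (adjusted p = 0.084) and with all 12 mice in 1 fit (0.157) and gained one for the interaction with a pseudocount of 0.1 (0.0416). For strain in treated mice, a pseudocount of 0.1 and no filter each left 2 of 4, and rescaling to TPM and averaging treated SLE123 replicates 2 and 3 each left 1. TPM raised the count for strain in untreated mice from 3 to 5, by lower calls of Adar and Myd88, and it moved the median of all genes from -0.0255 to -0.379 (0.0284 to -0.135 in treated mice, 0.0379 to 0.216 for treatment in SLE123, 0.0425 to 0.233 for the interaction). Under TPM, Samhd1 turned to -0.21 (untreated strains), -0.1 (treated strains) and 0.11 (interaction), and in treated strains Adar turned to -0.0654 and Myd88 to -0.15. Scaling to fragments outside immunoglobulin genes turned Myd88 to -0.0339 (treatment in SLE123), 0.0943 (untreated strains) and -0.00687 (interaction). Without 1 mouse, the counts ranged from 3 to 4, 0 to 0, 3 to 4, 1 to 2 and 1 to 3 in the 5 comparisons, and the values that changed sign were Tlr7 at -0.11 to 0.16 in B6, -0.0941 to 0.35 in SLE123 and -0.12 to 0.33 for the interaction, and Myd88 at -0.0644 to 0.083 in SLE123, -0.0834 to 0.0641 and -0.0227 to 0.0652 between untreated and treated strains, and -0.0359 to 0.11 for the interaction. Same-numbered mice deviated together by correlations of -0.161 to 0.266, so the numbers were not taken as pairs. With the replicate block the count was 0 for treatment in B6 (Tlr7 turned to -0.12), where limma called 0 of all genes and 2466 had an unadjusted p under 0.05, 1 for strain in treated mice and 0 for the interaction. No paired analysis was possible for strain in untreated mice because these groups share 1 number. The causes of these changes were not tested. Low depth limits Tlr9 in untreated B6, at 8 to 12 fragments.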
